A study of Mus musculus with 9 samples.

Results

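The presynaptic vesicle and active zone genes described here are 47 genes whose proteins store, dock, prime, release and retrieve synaptic vesicles. They were picked by name, as the rows whose Ensembl identifier maps to one of 47 listed mouse symbols, and all 47 were found among the 22255 rows of the deposited count table. The samples were hippocampal synaptoneurosomes, a fraction enriched in pinched-off synaptic endings, prepared from C57Bl/6J mice that all carried the Fmr1 KO genotype. Fmr1 encodes FMRP, an RNA-binding protein that represses translation of many neuronal mRNAs, and its loss is the standard mouse model of fragile X syndrome. Sub-chronic AM6545, a CB1 cannabinoid receptor antagonist with limited entry to the brain, was compared with vehicle in 4 AM6545 samples (lettered A, B, C and E) and 5 vehicle samples (A to E). Both groups carried the knockout, so there was no wild-type level to compare with. Age, sex, dose, time and number of doses, and whether each sample was 1 mouse or a pool, are not given in the sources used here. The p-values below therefore measure only the spread between these samples, which may be partly technical.

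Synaptic vesicles are filled with transmitter by vesicular transporters, clustered by synapsins and tethered at the active zone by large scaffold proteins. Munc13 and RIM proteins prime them, a SNARE complex drives fusion when a synaptotagmin senses calcium, and dynamin with its partners takes the membrane back. Their mRNAs are largely translated in the cell body, and a part of the pool is found in neurites and synaptic fractions. A synaptoneurosome library therefore reads mRNA that was in or near the synaptic endings, together with carried-over RNA. In bulk fractions such as these, fewer endings of a kind and less mRNA per ending cannot be told apart.

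Levels are given as CPM (counts scaled to library size), scaled between libraries by the trimmed mean of M-values (TMM), and differences as log2 fold changes of AM6545 over vehicle from the edgeR quasi-likelihood fit over 14512 genes. Total counts ran from 17628922 to 27263393 per sample, and the lowest count of any member in any sample was 42, for Syn3. The members together held 2.17% ± 0.0529 of all counts with AM6545 (SD, n = 4) and 2.07% ± 0.197 with vehicle (SD, n = 5). Among the libraries, AM6545 E and vehicle A stood apart for some roles of these genes and vehicle C did so for the SNARE genes. Averaged over all members, vehicle A and vehicle D were the lowest. Fmr1 itself still gave 10.1 ± 0.754 CPM with AM6545 and 11.7 ± 1.18 with vehicle, a log2 fold change of -0.22 with an SE of 0.11 and an edgeR adjusted p of 0.653. Without wild-type samples that level does not check the genotype. Marker lists of hippocampal neurons were read in every sample: 8 dentate granule cell markers summed to 648 to 703 CPM with AM6545 and 579 to 698 CPM with vehicle, and 7 CA1 pyramidal cell markers to 1051 to 1219 and 924 to 1133 CPM. Markers of other cells were present as well. The 10 choroid plexus markers summed to 456 to 3542 CPM with AM6545 and 311 to 10849 CPM with vehicle, with 1 of them at 0 in a sample. All 10 had a fitted difference below 0, with a median of -1.28 and 0 past the threshold, and of 7 tested ependymal markers 0 were above 0, with a median of -0.86 and 4 at an unadjusted edgeR p under 0.05. The 10 oligodendrocyte markers summed to 13379 to 19168 CPM with AM6545 and 11063 to 22987 CPM with vehicle.

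No member differed between AM6545 and vehicle past the threshold. Of the 47 members, 0 had an edgeR quasi-likelihood adjusted p under 0.05, and 0 of all 14512 genes did (0%), the smallest adjusted p being 0.653 both among members and among all genes. At an unadjusted p under 0.05 there were 3 members, Unc13a, Pclo and Ppfia3, all with higher means with AM6545. These are 6.38% of the members, against 7.21% of all genes in either direction and 3.03% of all genes in the higher direction. DESeq2, run as an alternative, also called 0 members, with 4 at an unadjusted p under 0.05. No member had CPM ranges that were apart between the groups, against 1.45% of all genes. In 39 of 47 members (83.0%) the fitted difference was above 0, against 48.2% of all genes and 50.02% of 11601 genes within the members' range of levels, and the median was 0.10 (log2) over the members against -0.01 over all genes. Marker lists of neurons were divided. Above 0 were 7 of 7 CA1 pyramidal cell markers (median 0.19), 6 of 8 pan-neuronal markers (0.11) and 6 of 8 dentate granule cell markers (0.06). Of the CA3 pyramidal cell markers 4 of 7 were (0.04), and of the inhibitory interneuron markers 4 of 10 (-0.07). Of other cells, 0 of 10 choroid plexus and 0 of 7 ependymal markers were. The part of these in the members' values was not tested. The count of 39 is not a count of tested changes, since no single member passed. It ran from 33 without AM6545 E to 42 without vehicle C. For each gene taken alone, the spread between these samples set limits to the fitted difference. The 47 intervals are separate and not joint, and they rest on the same spread as the p-values. Each standard error was derived from the fold change and its F statistic. The standard errors were 0.09 to 0.26 on the log2 scale, and the 95% interval of every one of the 47 members lay within a doubling or halving, reaching at most 0.80 upward and -0.43 downward.

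**Figure D1:**
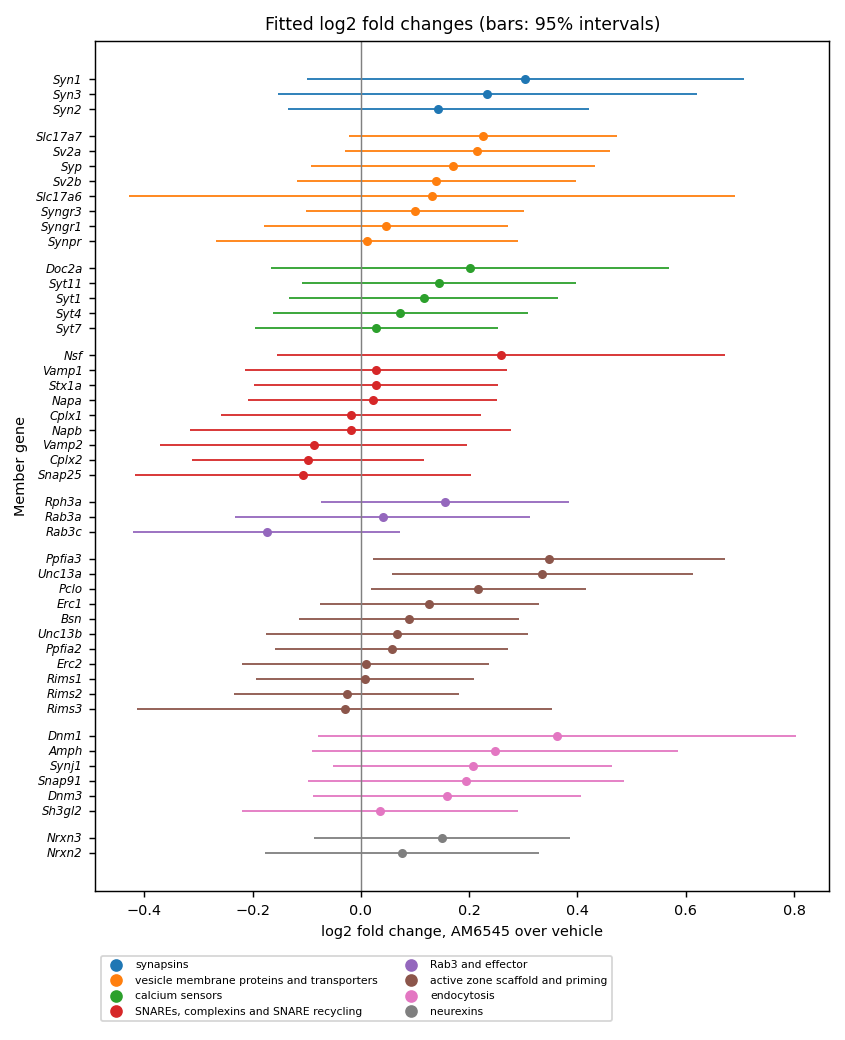
Fitted log2 fold change of AM6545 over vehicle for each of the 47 members (x axis), grouped and coloured by role, with bars for the 95% interval. The points lie between -0.17 (Rab3c) and 0.36 (Dnm1), and only the bars of Unc13a, Pclo and Ppfia3 do not cross 0.

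Levels per length differed between members by 1237-fold. Per kilobase of transcript, Snap25, the SNARE protein of the presynaptic plasma membrane, stood first at 1818 CPM. Next came the vesicle proteins synaptophysin (Syp, 742 CPM per kilobase) and synaptobrevin-2 (Vamp2, 563), the SNARE-recycling ATPase Nsf (483) and the vesicle GTPase Rab3a (450.3). These 5 genes held 55.7% of the members' summed level per length. At the other end were Unc13b (Munc13-2, 1.47 CPM per kilobase), Syn3 (1.53) and Nrxn2 (1.97). The active zone scaffold and priming genes were all in the lower part of this order, from Erc2 at 17.8 CPM per kilobase down to Unc13b. The longest members are among them, with principal transcripts of 20084 bases (Pclo), 15938 (Bsn) and 10255 (Unc13a). Levels were divided by the full length, and how evenly reads covered such lengths was not tested. Of the 46 pairs of neighbours in the order, 43 had ranges over the 9 samples that overlapped, as Syt11 (269.6 CPM per kilobase) and Syt1 (267) did.

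**Figure D2:**
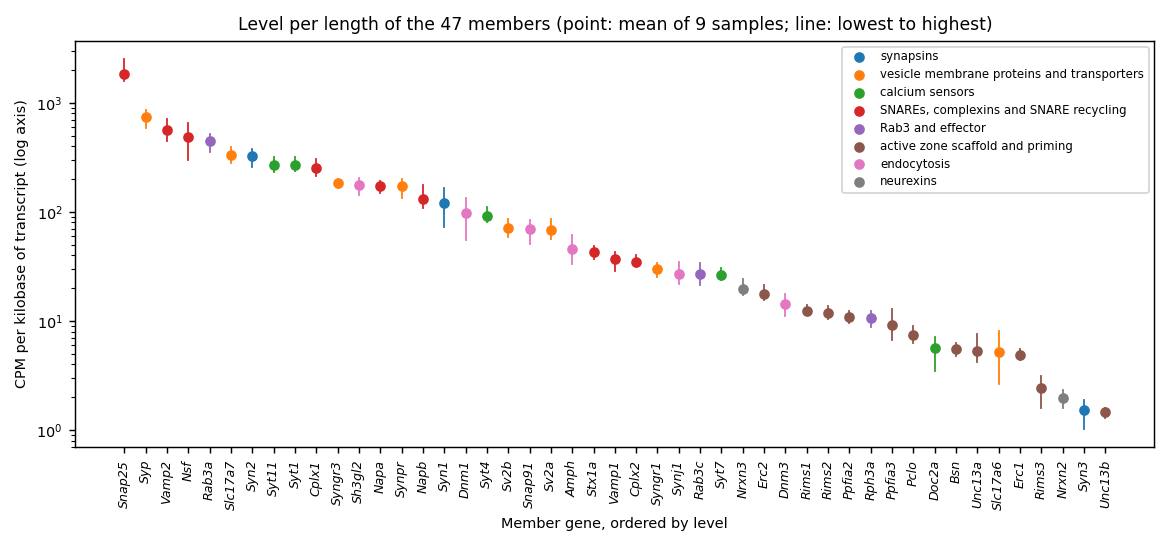
Level of each member in CPM per kilobase of its principal transcript (y axis, log scale), ordered by level and coloured by role, with the point at the mean of 9 samples and the line from the lowest to the highest sample. Snap25 is alone at the top with a mean of 1818, and the sample ranges are short beside the 1237-fold range between genes.

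Some of these levels carry a counting limit. Among the genes that most often shared runs of 75 bases with a member, none was another member. Parts of several transcripts overlap a gene on the opposite strand. The share of a member's 75-base runs also found in transcripts of other genes was 32.4% for Doc2a, 31.9% for Syp, 28.6% for Ppfia2, 18.8% for Erc1, 9.01% for Syt4, 6.21% for Dnm3, 4.72% for Nrxn3, 4.61% for Syt11, 4.14% for Unc13a and 3.53% for Pclo, and lower for every other member. The genes most often sharing runs with Syt11, Cplx2 (2.585%) and Rab3c (1.08%) do not overlap them. Those listed for Cplx2 and Rab3c are the same genes, and whether Cplx2 and Rab3c share runs with each other is not shown. Whether the counting used strand is not given in the sources used here, so the levels of the members with shared runs are uncertain to that extent.

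The active zone genes hold the 3 members with the smallest p-values. Unc13a encodes Munc13-1, the main vesicle-priming factor of hippocampal excitatory synapses, and its level was 64.5, 78.2, 56.2 and 46.9 CPM in AM6545 A, B, C and E. In vehicle A to E it was 46.4, 52.6, 43.4, 48.8 and 52.3 CPM. AM6545 A, B and C all lay above every vehicle sample, and AM6545 E lay inside the vehicle range. The means were 61.5 ± 13.3 CPM (SD, n = 4) and 48.7 ± 3.92 CPM (SD, n = 5). The fitted log2 fold change was 0.33 with an SE of 0.13, with an edgeR unadjusted p of 0.0215 and an adjusted p of 0.653. Piccolo (Pclo), a very large scaffold protein of the active zone, was at 168, 179.96, 148 and 156 CPM in AM6545 A, B, C and E. The vehicle samples A to E had 135, 145, 127, 149.5 and 144 CPM. Of the AM6545 samples, 3 were above every vehicle sample and AM6545 C was just below vehicle D, the highest of them. The log2 fold change of Pclo was 0.22 with an SE of 0.09, with an edgeR unadjusted p of 0.0344 and an adjusted p of 0.653.

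Ppfia3 encodes liprin-alpha-3, an organiser of the active zone. Its CPM in AM6545 A, B, C and E were 51.5, 60.03, 39.01 and 43.02. The vehicle values from A to E were 33.3, 48.97, 30.9, 34.2 and 42.6 CPM. AM6545 A and B were above all vehicle samples, while AM6545 C and E were below vehicle B. The log2 fold change was 0.35 with an SE of 0.15 (edgeR unadjusted p = 0.0383, adjusted p = 0.653). For all 3 genes AM6545 B was the highest of the 9 samples and vehicle C the lowest. Without AM6545 B the log2 fold change of Unc13a was 0.20, that of Pclo 0.17 and that of Ppfia3 0.23, none at an unadjusted p under 0.05. Without AM6545 E that of Unc13a was 0.45. Leaving out AM6545 A left 0 members at an unadjusted p under 0.05, leaving out vehicle A left 1, vehicle B 5 and AM6545 E 10, and without any other single library there were 2 or 3.

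**Figure D3:**
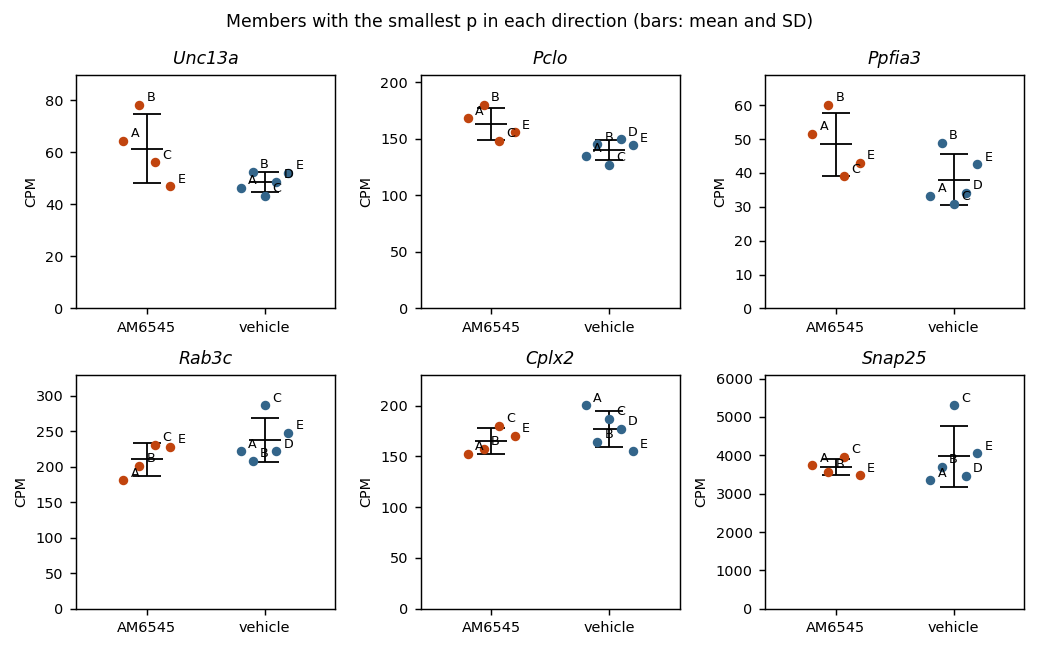
CPM (y axis, from 0) in each sample for the 3 members with the smallest unadjusted p in each direction, with letters naming the samples and bars for the mean and SD of 4 AM6545 and 5 vehicle samples. The groups overlap in each of the 6 panels, and Snap25 has 1 high vehicle sample, C, at 5304 CPM.

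The other active zone genes showed smaller differences. Over the 11 genes of this role 9 had a fitted difference above 0 and 2 below, with a median of 0.07, and 0 passed. The median was 0.04 without AM6545 E, and without vehicle D it was 0.03 with 7 of 11 above 0. In vehicle D, 0 of the 11 were above their own mean over the 9 samples, by -0.16 (log2 CPM) on average. Bassoon (Bsn), the partner scaffold of piccolo, had a log2 fold change of 0.09 with an SE of 0.09, and the RIM genes, whose proteins link vesicles to calcium channels, had 0.01 (Rims1), -0.03 (Rims2) and -0.03 (Rims3). Munc13-2 (Unc13b) had 0.07, liprin-alpha-2 (Ppfia2) 0.06 and the scaffold ELKS (Erc1) 0.13. Erc2, also an ELKS-type scaffold protein and the gene of this role with the highest level per length, was at 108, 110.2, 123 and 105 CPM in AM6545 A, B, C and E and at 99.5, 115, 134, 96.7 and 109 CPM in vehicle A to E. Its groups overlapped throughout, with vehicle C highest and vehicle D lowest, and its log2 fold change was 0.01 with an SE of 0.11.

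The bases just upstream of the 3 genes are shown here because these genes had the smallest p-values among the members. They are read from the RefSeq promoter table (GRCm38.p6), 5′ to 3′ on the gene's own strand, and end at the base before the annotated start. Capitals mark matches, on either strand, to the GC box GGGCGG or to CCAAT, so that CCGCCC and ATTGG are the same motifs read on the opposite strand.
Unc13a, chr8:71671758-71672007, minus strand: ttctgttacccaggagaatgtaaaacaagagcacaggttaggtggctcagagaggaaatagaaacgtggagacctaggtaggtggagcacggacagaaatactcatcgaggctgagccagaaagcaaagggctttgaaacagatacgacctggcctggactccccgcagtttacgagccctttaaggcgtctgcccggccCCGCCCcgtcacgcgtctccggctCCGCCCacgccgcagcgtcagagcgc
Pclo, chr5:14514668-14514917, plus strand: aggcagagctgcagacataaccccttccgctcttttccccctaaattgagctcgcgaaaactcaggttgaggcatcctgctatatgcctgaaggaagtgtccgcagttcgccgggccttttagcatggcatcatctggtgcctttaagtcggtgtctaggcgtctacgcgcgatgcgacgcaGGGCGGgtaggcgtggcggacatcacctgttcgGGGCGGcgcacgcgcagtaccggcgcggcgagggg
Ppfia3, chr7:45367020-45367269, minus strand: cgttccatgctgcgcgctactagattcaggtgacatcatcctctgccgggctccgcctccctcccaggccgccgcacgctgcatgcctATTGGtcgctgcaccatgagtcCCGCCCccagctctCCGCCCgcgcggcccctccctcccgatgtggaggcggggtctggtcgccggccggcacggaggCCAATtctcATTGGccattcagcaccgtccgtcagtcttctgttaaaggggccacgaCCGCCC

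Within 250 bases of the start, Unc13a and Pclo each had 2 GC boxes and neither had a CCAAT box, while Ppfia3 had 3 of each. Of the 47 members, 38 matched the promoter table. A GC box stood upstream of 27 of these 38 genes (71.1%), against 62.4% of 11274 tested genes and 35.4% of all 27025 genes in the table. CCAAT was found for 12 of 38 (31.6%), against 40.2% of the tested genes and 37.5% of all genes in the table. The TATA motif TATAAA was found for 1 of 38 (2.63%), Sv2b, against 8.21% of tested genes and 14.3% of all genes in the table. The full cAMP response element TGACGTCA was found for 2 of 38 (5.26%), Syn1 and Sh3gl2, against 2.95% and 1.77%. These are matches of letters and not shown binding sites, and genes with several starts had more than 1 window searched. The full 250 bases were searched, also where the M21 reference's own transcripts of a gene reach into them. The GC boxes of Syp, Synj1, Sh3gl2 and Syt11 and the TGACGTCA of Sh3gl2 lay in such transcribed bases.

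The synapsins coat the vesicle surface and hold the reserve pool. All 3 had a fitted difference above 0, with a median of 0.23, and 0 passed. Without vehicle A the median was 0.14. Syn2, the highest of them per length, was at 972, 1024, 1010.4 and 714 CPM in AM6545 A, B, C and E. Vehicle A to E gave 693, 857, 875, 880.2 and 906 CPM. In each group a single library was low, AM6545 E and vehicle A, and the other samples lay close together. The log2 fold change was 0.14 with an SE of 0.13 (edgeR unadjusted p = 0.289, adjusted p = 0.752). Syn1 had a wider range of the same shape, chosen for description after its values were seen, at 499, 537, 431 and 279 CPM in AM6545 A, B, C and E and 234, 412, 369.6, 344 and 408 CPM in vehicle A to E. The log2 fold change of Syn2 was 0.25 without AM6545 E and 0.08 without vehicle A. That of Syn1 was 0.30 with an SE of 0.19, or 0.47 without AM6545 E, 0.19 without AM6545 B and 0.19 without vehicle A, and its highest sample was 2.29-fold its lowest. Syn3, the rarest synapsin here, was at 3.95 ± 0.433 and 3.34 ± 0.671 CPM.

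Dynamin and its partners, which pinch off and uncoat vesicle membrane, had the same low libraries as the synapsins. All 6 endocytosis members had a fitted difference above 0 (median 0.20), and 0 passed. Without vehicle A 5 of the 6 were above 0, with a median of 0.14. The largest fitted difference of any member was that of Dnm1, the neuronal dynamin, at 0.36 with an SE of 0.21, an edgeR unadjusted p of 0.101 and an adjusted p of 0.661. Without vehicle A it was 0.24, below Ppfia3 at 0.30, and without AM6545 E it was 0.54. Dnm1, given in each sample after its values were seen, measured 485, 507, 422 and 252 CPM in AM6545 A, B, C and E and 208, 409, 344, 289 and 370.3 CPM in vehicle A to E, a 2.44-fold range in which AM6545 E and vehicle A were the lowest of all 9. Sh3gl2 (endophilin A1), the endocytosis gene with the highest level per length, was at 528, 485, 553 and 469 CPM with AM6545 and 401, 504, 579, 454 and 543 CPM with vehicle in the same order of samples. Its groups overlapped, and its log2 fold change was 0.04 with an SE of 0.12. The clathrin adaptor gene Snap91 (AP180) had a log2 fold change of 0.19, the phosphatase Synj1 (synaptojanin-1) 0.21, amphiphysin (Amph) 0.25 and Dnm3 0.16.

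Of the vesicle membrane proteins and transporters 8 of 8 had a fitted difference above 0, with a median of 0.13 and 0 passing. Without AM6545 E that fell to 5 of 8, with a median of 0.07, so the count rested in part on 1 library. Syp, the most abundant of them, was at 2022, 1824, 2135 and 2211 CPM in AM6545 A, B, C and E and 1794, 2097, 1531, 1967 and 1710.1 CPM in vehicle A to E. AM6545 E was highest and vehicle C lowest, and the groups overlapped. The log2 fold change of Syp was 0.17 with an SE of 0.12 (edgeR unadjusted p = 0.186, adjusted p = 0.701). The glutamate transporter VGLUT1 (Slc17a7), typical of hippocampal principal cells, was at 1049 ± 103 CPM with AM6545 and 897 ± 96.1 CPM with vehicle, a log2 fold change of 0.23 with an SE of 0.12. VGLUT2 (Slc17a6), typical of subcortical inputs, was at 22.6 ± 9.40 and 20.6 ± 6.10 CPM and had the widest range of any member, 3.06-fold. The vesicle glycoprotein genes Sv2a and Sv2b had log2 fold changes of 0.21 and 0.14, the synaptogyrin genes Syngr1 and Syngr3 0.05 and 0.10, and synaptoporin (Synpr) 0.01. Without AM6545 E that of Sv2a was 0.13, of Sv2b 0.07, of Slc17a6 -0.13 and of Synpr -0.07.

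The synaptotagmins and Doc2a, grouped here under the role of calcium sensors, gave 5 of 5 fitted differences above 0. Their median was 0.12 with 0 passing, and 3 of 5 were above 0 without AM6545 E. Syt11, a synaptotagmin that does not bind calcium and had the highest level per length in this role, was at 1322, 1271, 1510.1 and 1612 CPM in AM6545 A, B, C and E. Its vehicle values, A to E, were 1278, 1334, 1171, 1482 and 1199 CPM. AM6545 E was again highest and vehicle C lowest, and the log2 fold change was 0.14 with an SE of 0.12. Syt1, the fast calcium sensor of release, had a log2 fold change of 0.12, Syt4 0.07, Syt7, a slower sensor, 0.03, and Doc2a, a sensor linked to spontaneous and asynchronous release, 0.20. Without AM6545 E Syt1 was at 0.04 and Syt11 at 0.08, and Doc2a was at 0.09 without vehicle A. The neurexins, adhesion proteins that organise the presynaptic side of the contact, had 0.08 (Nrxn2) and 0.15 (Nrxn3). Without AM6545 E these were 0.003 and 0.08, and without vehicle C Nrxn2 was at 0.02. Nrxn3, the more abundant per length, was at 150.3, 141, 181 and 191 CPM in the AM6545 samples and 163, 143, 141, 164 and 136 CPM in the vehicle samples, highest in AM6545 E and lowest in vehicle E, with groups that overlapped.

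The SNARE genes had a different pattern over samples, with 8 of the 9 above their own mean in vehicle C. Snap25 was at 3744, 3569, 3961 and 3481 CPM in AM6545 A, B, C and E. In vehicle A to E it was at 3354, 3697, 5304, 3459 and 4052 CPM. Vehicle C lay far above all other samples, which overlapped between the groups. The log2 fold change was -0.11 with an SE of 0.15 (edgeR unadjusted p = 0.472, adjusted p = 0.839), and without vehicle C it was 0.02. Vehicle C was also the highest sample for Vamp2 (1551 CPM against 985 in vehicle D, the lowest), for Vamp1, for the complexin gene Cplx1 and for Napb, which encodes the Nsf adaptor beta-SNAP. Markers of other cells were lowest of the 9 samples in vehicle C, with mean deviations of -0.29 for astrocytes, -0.39 for oligodendrocytes, -0.34 for their precursors, -0.52 for microglia, -0.74 for endothelial cells and -3.15 for choroid plexus, and their part in these values was not tested. Of the 9 members of this role 4 had a fitted difference above 0 and 5 below, with a median of -0.02, with 7 of 9 above 0 without vehicle C and 2 of 9 without vehicle A or without vehicle D.

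Cplx2, whose protein clamps and promotes SNARE fusion, was at 153, 158, 180.3 and 170.4 CPM in AM6545 A, B, C and E and at 200.4, 164, 187, 177 and 155 CPM in vehicle A to E. Vehicle A was highest and AM6545 A lowest, within ranges that overlapped, and the log2 fold change was -0.10 with an SE of 0.10, an edgeR unadjusted p of 0.348 and an adjusted p of 0.783. Nsf was the exception of this role in vehicle C, at -0.09 (log2 CPM) relative to its own mean over the 9 samples. Its values, described after they were seen, were 2106, 2474, 2179.7 and 1249.5 CPM with AM6545 and 1123, 1893, 1660.5, 1867 and 1823 CPM with vehicle, low in AM6545 E and vehicle A as Syn1 and Dnm1 were. Its log2 fold change of 0.26 was 0.43 without AM6545 E, 0.14 without AM6545 B and 0.14 without vehicle A. Napa was also lowest in AM6545 E (372 CPM) and next lowest in vehicle A (386 CPM), and Stx1a was lowest in AM6545 E (80.8 CPM). The log2 fold changes of the other members of this role were 0.03 for Vamp1, -0.09 for Vamp2, 0.03 for Stx1a (syntaxin-1A), -0.02 for Cplx1, 0.02 for Napa (alpha-SNAP) and -0.02 for Napb.

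The Rab3 group holds the member that was lowest with AM6545. Rab3c, a vesicle GTPase, was at 181, 202, 231 and 228 CPM in AM6545 A, B, C and E and at 222, 208, 287, 222 and 248 CPM in vehicle A to E. AM6545 A and B were below every vehicle sample and AM6545 C and E were inside the vehicle range. The log2 fold change was -0.17 with an SE of 0.12 (edgeR unadjusted p = 0.154, adjusted p = 0.683). Rab3a, its far more abundant paralog, was at 749.98, 801, 748 and 548 CPM and 582, 688, 754, 700.4 and 736 CPM in the same order, low in AM6545 E and vehicle A, with a log2 fold change of 0.04 with an SE of 0.13. Rabphilin-3A (Rph3a), an effector of Rab3, had 0.16. The median of the 3 genes was 0.04, and 2 of 3 were above 0, or 1 of 3 without AM6545 B or without vehicle A.

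Single libraries stood high or low for many members at once. In AM6545 E and in vehicle A, 0 of the 6 endocytosis genes were above their own mean over the 9 samples, and the same held in vehicle D. The mean deviation of the endocytosis genes was -0.26 (log2 CPM) in AM6545 E, -0.43 in vehicle A and -0.13 in vehicle D, against 0.32 in AM6545 B, the highest. The synapsins gave -0.18 in AM6545 E and -0.52 in vehicle A. Over all 47 members the mean deviation was -0.17 in vehicle A and -0.10 in vehicle D, against 0.02 in AM6545 E. Vehicle A had the lowest value of 12 of the 47 members, vehicle D of 11 and vehicle C of 10. AM6545 B had the highest value of 15, AM6545 E of 13 and vehicle C of 11. Values of other markers moved with AM6545 E and vehicle A. A list of 8 pan-neuronal markers had a mean deviation of -0.17 in AM6545 E and -0.20 in vehicle A and between -0.03 and 0.19 in the other 7 samples. Vehicle A also had the highest share of mitochondrial counts (7.90%, 95% Wilson interval 7.89% to 7.91%, against 4.06% to 6.73% in the others, the interval covering counting error only) and the largest deviation of transcripts under 1 kb (a median of 0.38 on the log2 scale). Oligodendrocyte and ependymal markers were highest there too, with mean deviations of 0.43 and 1.10, and choroid plexus markers stood at 2.17, next to 2.28 in vehicle D. Microglia markers had their 2 highest values in these libraries, 0.27 in AM6545 E and 0.31 in vehicle A. The part of these in the members' values was not tested.

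**Figure D4:**
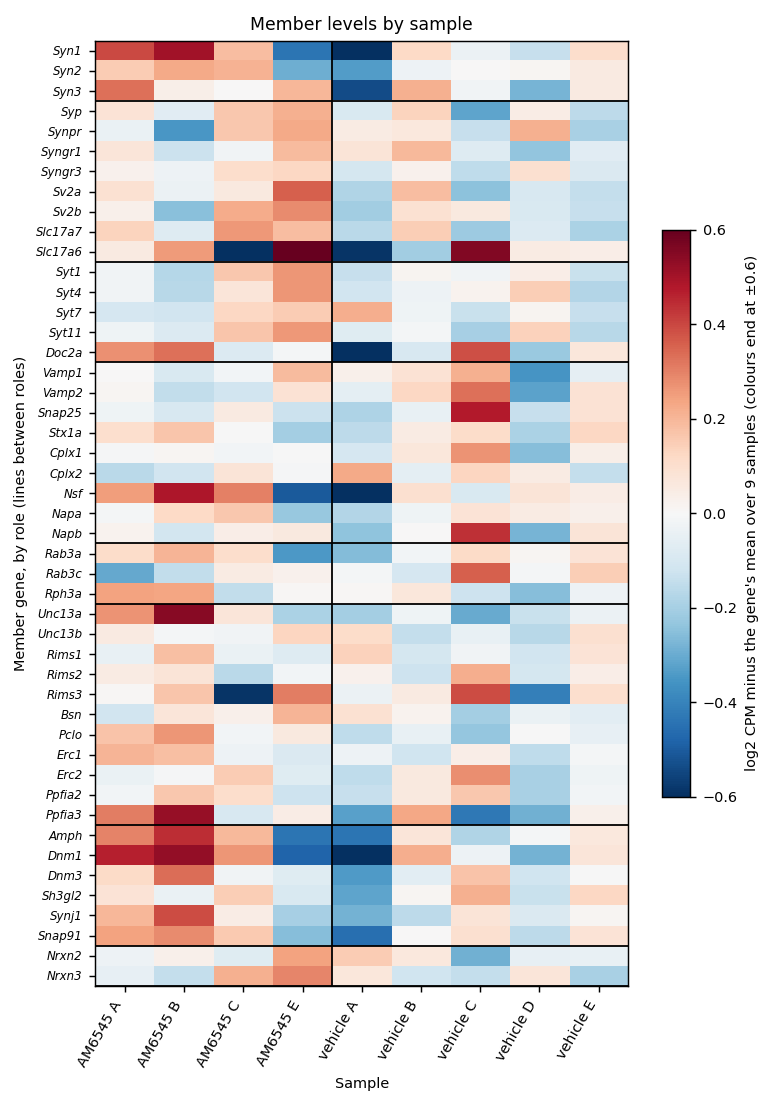
Log2 CPM of each member minus its mean over the 9 samples (colour, from blue for -0.6 to red for 0.6), with members in rows by role and samples in columns, AM6545 left of the vertical line. Dnm1, Syn1 and Nsf are blue in both AM6545 E and vehicle A, while the vesicle membrane genes are red in AM6545 E, with a mean deviation of 0.29.

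AM6545 E was not low for all members. The 14 members whose proteins span the membrane and enter it through the endoplasmic reticulum (the vesicle membrane proteins and transporters, 4 synaptotagmins and both neurexins) were all above their mean there, by 0.27 on average, and 11 of the 14 had their highest value in that library. The other 33 members had 11 above their mean in AM6545 E and averaged -0.09. This division by protein topology was chosen after the values had been seen, so it is a description without a test. The difference between the 2 classes, membrane-spanning minus other, was -0.09, -0.27, 0.02 and 0.36 in AM6545 A, B, C and E and 0.14, 0.02, -0.18, 0.17 and -0.17 in vehicle A to E. It was spread within both groups and had nearly the same mean in each, 0.005 ± 0.265 with AM6545 (SD, n = 4) and -0.004 ± 0.163 with vehicle (SD, n = 5). All 14 membrane-spanning members had a fitted AM6545 difference above 0, with a median of 0.12. Without AM6545 E 9 of 14 did, with a median of 0.06, and without both AM6545 E and vehicle A 11 of 14 did, with a median of 0.05.

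**Figure D5:**
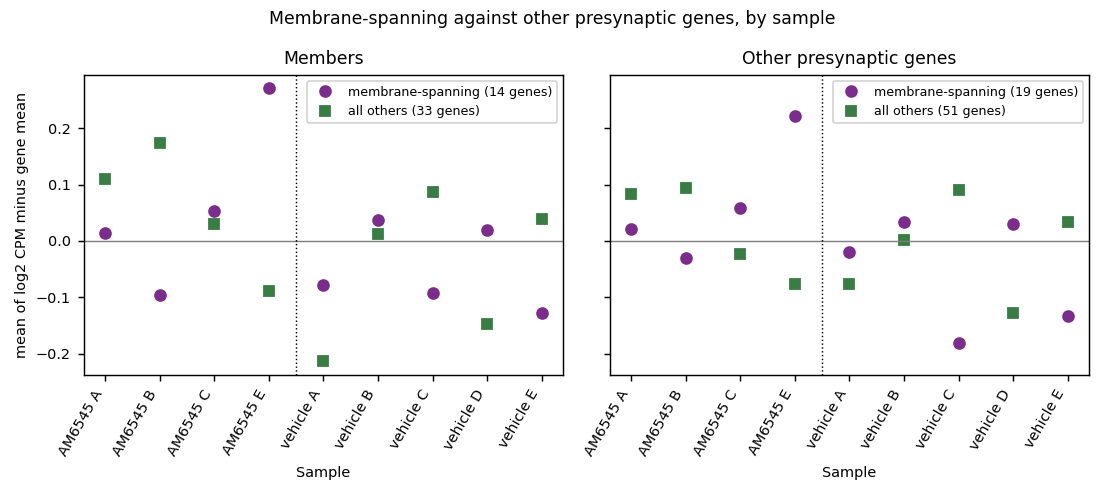
Mean of log2 CPM minus each gene's mean over the 9 samples (y axis) in each sample (x axis), for membrane-spanning genes (circles) and all others (squares), among the 47 members at left and among other presynaptic genes at right. The classes are furthest apart in AM6545 E, where the 14 membrane-spanning members average 0.27 and the other 33 average -0.09.

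Other presynaptic genes, which are not members, were split in the same way. Their difference between 19 membrane-spanning and 51 other genes was -0.06, -0.12, 0.08 and 0.30 in AM6545 A, B, C and E and 0.06, 0.03, -0.27, 0.16 and -0.17 in vehicle A to E, and 18 of the 19 membrane-spanning genes were above their mean in AM6545 E. A list of 8 resident proteins of the endoplasmic reticulum, also drawn up after the values were seen, had 8 of 8 above their mean in AM6545 E. In AM6545 C, vehicle A and vehicle D 7 of these 8 were, and in vehicle C and vehicle E 0 were. Their mean deviation was 0.20 in AM6545 E, 0.14 in vehicle A, 0.12 in vehicle D and -0.34 in vehicle C. The 14 membrane-spanning members averaged -0.08 in vehicle A. Lists of 16 receptors, channels and other membrane proteins and of 13 mostly cytosolic proteins (12 of them tested) were also drawn up then. In AM6545 E 16 of 16 of the former were above their mean, by 0.33 on average, and 5 of 12 of the latter, at -0.18. In vehicle A these averaged -0.06 and -0.18. The receptors, channels and other membrane proteins also had 14 of 16 above their mean in AM6545 C and 11 of 16 in vehicle D. They had 2 of 16 in vehicle C and 1 of 16 in vehicle E. Since the libraries share all their genes, these are descriptions of single samples.

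Ratios of 2 members within a sample restate some of these differences, since most pairs were chosen with the values known. Dnm1 over Sv2a in CPM was 0.673 in AM6545 E and 0.808 in vehicle A, and 1.05 to 1.78 in the other 7 samples. Syn1 over Syp was 0.126 and 0.130 there and 0.175 to 0.294 elsewhere. Snap25 over Syp was 3.46 in vehicle C and 1.57 to 2.37 in the rest. Not every pair set the same libraries apart. Cplx2 over Cplx1 was highest in vehicle A (0.387) and vehicle D (0.381), and AM6545 E at 0.308 was within the range of 0.272 to 0.329 of the remaining samples. By comparison, Vamp2 over Vamp1, 2 genes for closely related vesicle SNAREs, stayed between 11.2 and 13.2 in all 9 samples. The glutamate transporter ratio, Slc17a7 over Slc17a6, ran from 27.4 in vehicle C to 104 in AM6545 C.

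The sequences upstream of Syn1 and Dnm1, whose levels were low in AM6545 E and vehicle A, and of Sv2a, which was highest in AM6545 E, are set side by side for this contrast between libraries, marked as above with TGACGTCA also in capitals. For Syn1 and Sv2a the run stops where the reference's own transcripts of the gene begin.
Syn1, chrX:20921005-20921168, minus strand: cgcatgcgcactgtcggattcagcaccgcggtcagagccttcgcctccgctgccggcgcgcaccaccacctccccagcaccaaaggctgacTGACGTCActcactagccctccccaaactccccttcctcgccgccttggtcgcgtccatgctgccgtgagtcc
Dnm1, chr2:32353330-32353579, minus strand: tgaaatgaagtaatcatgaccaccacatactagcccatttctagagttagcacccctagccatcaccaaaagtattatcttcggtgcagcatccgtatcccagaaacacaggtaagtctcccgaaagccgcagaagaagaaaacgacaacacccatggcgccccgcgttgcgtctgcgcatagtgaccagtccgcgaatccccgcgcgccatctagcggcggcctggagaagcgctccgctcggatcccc
Sv2a, chr3:96180977-96181150, plus strand: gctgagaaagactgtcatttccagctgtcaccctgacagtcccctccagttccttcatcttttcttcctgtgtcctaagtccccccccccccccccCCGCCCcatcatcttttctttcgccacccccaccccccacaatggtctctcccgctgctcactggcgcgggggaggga

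The printed Syn1 bases held a full cAMP response element, those of Sv2a a GC box, and those of Dnm1 none of the 4 motifs. Syn1 and Dnm1, low in the same libraries, thus had no motif in common in the printed bases. The genes were chosen after their values were seen, and any link of these letter matches to the levels was not tested.

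A list of 71 other presynaptic genes was read beside the members, and all 71 were tested. It gave 51 fitted differences above 0 and 20 below, with a median of 0.07, and 0 passed. At an unadjusted p under 0.05 there were 5 of the 71, all higher with AM6545. Over all genes tested the shares were 7.21% in either direction and 3.03% in the higher direction. Syt3, a synaptotagmin of high calcium affinity, was at 113 ± 8.30 CPM with AM6545 and 93.3 ± 11.01 CPM with vehicle, a log2 fold change of 0.28 with an SE of 0.10, an edgeR unadjusted p of 0.0153 and an adjusted p of 0.653. Syt6, also a synaptotagmin, was at 4.47 ± 0.725 and 3.35 ± 0.643 CPM (log2 fold change 0.40). Rab3gap2, a subunit of the complex that switches Rab3 off, was at 46.2 ± 8.06 and 38.1 ± 2.59 CPM (0.28). The alpha subunits of the AP-2 clathrin adaptor, Ap2a1 and Ap2a2, had log2 fold changes of 0.46 and 0.32. Rab3gap2, Ap2a1 and Ap2a2 were each highest in AM6545 B and lowest in vehicle A, with Ap2a1 at 171 and 62.3 CPM there. Syt3 was highest in AM6545 C and lowest in vehicle C, and Syt6 was highest in AM6545 A and lowest in vehicle A. On the lower side the smallest p-values were those of Rab27b (-0.24, unadjusted p = 0.0738), Doc2b (-0.40) and Snap23 (-0.23), a vesicle GTPase, a calcium sensor and a SNARE protein. By role, 13 of 15 further endocytosis genes, 9 of 11 synaptotagmins and related sensors, 12 of 15 active zone genes, 6 of 10 vesicle proteins, 7 of 12 SNARE genes and 4 of 8 Rab genes had a fitted difference above 0. The 15 endocytosis genes had the same low libraries as the members of that role, with mean deviations of -0.18 in AM6545 E and -0.21 in vehicle A.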

How the data were processed

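Per the labels' protocols, total RNA of 9 synaptoneurosome samples gave SMARTer Ultra Low Input libraries, which were read on an Illumina NovaSeq. The authors deposited 1 table of estimated counts for 22255 Ensembl IDs. Salmon 1.3 and DESeq2 1.30 are named in the submitters' processing notes with genome builds GRCm39 and mm10, without role or order, and the annotation and strand setting are not given in the sources used here. Symbols for 22155 IDs and lengths (principal transcript, a choice made after member values were seen) came from GENCODE M21. The estimated counts were rounded and fitted with edgeR 4.0.16 (R 4.3.3): filterByExpr, TMM scaling, quasi-likelihood F-test of AM6545 against vehicle over 14512 genes, Benjamini-Hochberg adjustment, threshold 0.05. Log2 CPM used a prior count of 2. The fit was also run on counts simulated from its own estimates of spread, which held no shifts of whole libraries. That run does not bear on the differences between libraries described above. The total count was 17628922 to 27263393 per sample.

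The members and lists were chosen with earlier results of these data known. Values in every sample are given for members with an unadjusted p under 0.05, the 3 with the smallest p in each direction and the 1 with the highest level per length in each role; any others were chosen after their values were seen. Alternatives were other scaling, filters, DESeq2 1.42.0, limma 3.58.1 (voom), a replicate block, removal of a length trend and leaving out samples.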

Additional observations from a re-analysis of the deposited data

Results flagged for a closer look

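In 120 groups of 4 or 5 samples (60 quantities, each in both groups), the gap of the highest or lowest sample to its neighbour, divided by the group's range, passed Dixon's 95% critical value 4 times, where chance gives about 6. Syn2 was lowest in AM6545 E (gap over range 0.854), at 714 CPM against 972 to 1024 in the other AM6545 samples. Syn2 was also lowest in vehicle A (0.790), at 693 CPM against 857 to 906. Nsf was lowest in vehicle A (0.749), at 1123 CPM against 1661 to 1893. Rims1 was highest in AM6545 B (0.849), at 90.8 CPM against 76.0 to 78.0.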

How the results depend on the processing

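Under all 19 alternatives 0 members passed, the lowest adjusted p being 0.324. The count of all genes past the threshold was 0 in edgeR and ranged from 0 to 1 when single samples were left out (1 without AM6545 A). Members with a difference above 0 numbered 33 to 42, and those at an unadjusted p under 0.05 numbered 3, 8 without AM6545 E and vehicle A together (chosen after seeing the data), 9 with limma sample weights and 1 with the length trend removed. Of the 47 members, 30 never changed sign (27 higher, 3 lower) and 17 did, all without passing. The log2 fold changes that turned follow, and the cause was not tested. With total counts they were Erc2 -0.0032 and Rims1 -0.000367. With voom Napb was 0.0033, and with sample weights Rims1 -0.013 and Slc17a6 -0.076. With the length trend removed they were Erc2 -0.015 and Rims1 -0.015, and without AM6545 E and vehicle A together Slc17a6 -0.25, Synpr -0.053, Syt4 -0.028 and Vamp1 -0.023. With the replicate block they were Erc2 -0.031, Rims1 -0.020, Stx1a -0.017, Syngr1 -0.0040 and Vamp1 -0.048, and 34 members were above 0, with 7 of 11 active zone genes (median 0.04) and 2 of 9 SNARE genes. Leaving out single samples gave ranges of -0.078 to 0.053 for Cplx1, -0.041 to 0.086 for Erc2, -0.029 to 0.096 for Napa, -0.086 to 0.11 for Napb, -0.021 to 0.15 for Rab3a, -0.054 to 0.044 for Rims1, -0.057 to 0.028 for Rims2, -0.15 to 0.13 for Rims3, -0.032 to 0.097 for Sh3gl2, -0.13 to 0.36 for Slc17a6, -0.16 to 0.019 for Snap25, -0.024 to 0.096 for Stx1a, -0.0093 to 0.11 for Syngr1, -0.066 to 0.12 for Synpr, -0.00833 to 0.14 for Syt4, -0.019 to 0.090 for Syt7 and -0.048 to 0.087 for Vamp1.

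Letters were shared by 4 samples of each group. Deviations of same-lettered samples correlated at -0.02 (A), 0.04 (B), 0.34 (C) and -0.02 (E) and 1 of 4 letters correlated best with its own, so the letters were not taken as pairs, and the replicate block changed no call. The largest standard error of a member, 0.26, was that of Slc17a6, and the lowest count in a sample, 42, that of Syn3.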
